A study of Mus musculus with 8 samples.

Results

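The SR, hnRNP and SF3 splicing factor genes were examined in monocyte-derived dendritic cells taken from the inflamed central nervous system of mice. Members were the genes of the deposited expression table whose symbols begin with Srsf, with Hnrnp or with Sf3a or Sf3b and a number, which gave 36 of 12256 genes. The SR family held 10 genes (Srsf1, Srsf2, Srsf3, Srsf4, Srsf5, Srsf6, Srsf7, Srsf9, Srsf10 and Srsf11). The hnRNP family held 18 genes (Hnrnpa0, Hnrnpa1, Hnrnpa2b1, Hnrnpa3, Hnrnpab, Hnrnpc, Hnrnpd, Hnrnpf, Hnrnph1, Hnrnph2, Hnrnph3, Hnrnpk, Hnrnpl, Hnrnpm, Hnrnpr, Hnrnpu, Hnrnpul1 and Hnrnpul2). The SF3 family held 8 genes (Sf3a1, Sf3a2, Sf3a3, Sf3b1, Sf3b2, Sf3b3, Sf3b4 and Sf3b5). All 36 had a value in each of the 8 libraries.

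The mice, all of strain C57Bl/6, had EAE (experimental autoimmune encephalomyelitis), in which immune cells attack brain and spinal cord after immunization with a peptide of myelin oligodendrocyte glycoprotein (residues 35 to 55). At 2 to 4 days after the first clinical signs they were injected with 10 µL of PBS alone, or with 1000000 neural precursor cells (NPCs) in 10 µL of PBS. At 7 days after treatment, dendritic cells of hindbrain and spinal cord were sorted by high CD45, CD11b, Ly6C, intermediate CD11c and MHC class II, without Ly6G. Each group held 4 libraries, named PBS 1 to 4 and NPC A to D, and each library came from its own pool of 4 to 7 mice. The labels give no age, no sex and no source of the NPCs, and nothing pairs the PBS libraries with the NPC libraries. The series design and the labels differ on the route of injection, and 1 label gives 4 days after onset rather than 2 to 4. The comparison asks how dendritic cells of NPC-treated mice differ from those of vehicle-treated mice.

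SR proteins carry RNA recognition motifs and a tail rich in arginine and serine, bind enhancers within exons and help to recruit the splicing machinery. Many SR and hnRNP genes limit their own output through poison exons, which send the transcript to nonsense-mediated decay. hnRNP proteins coat nascent transcripts and often act on silencer elements, so that the families can push the same exon in opposite directions. SF3a and SF3b are different in kind: they are core subunits of the U2 small nuclear ribonucleoprotein (snRNP), which recognises the branch point of nearly every intron.

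The promoters of 3 members are shown because Srsf9, Hnrnpf and Sf3b2 had the smallest unadjusted p of their families. The sequences are from RefSeq on GRCm38.p6 and give the 250 bases before the first listed transcription start, read in the direction of transcription. Capitals mark matches to a GC box (GGGCGG, or CCGCCC on the other strand), an ETS site (CCGGAAG) or a CCAAT box.
Srsf9 (chr5:115326927-115327176, plus strand): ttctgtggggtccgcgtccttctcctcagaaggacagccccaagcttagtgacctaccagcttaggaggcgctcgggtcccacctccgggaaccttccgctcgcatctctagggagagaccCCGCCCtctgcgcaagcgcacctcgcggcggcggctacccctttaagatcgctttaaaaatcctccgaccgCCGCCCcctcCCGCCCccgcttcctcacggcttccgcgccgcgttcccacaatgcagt
Hnrnpf (chr6:117900090-117900339, plus strand, the first of 4 listed starts): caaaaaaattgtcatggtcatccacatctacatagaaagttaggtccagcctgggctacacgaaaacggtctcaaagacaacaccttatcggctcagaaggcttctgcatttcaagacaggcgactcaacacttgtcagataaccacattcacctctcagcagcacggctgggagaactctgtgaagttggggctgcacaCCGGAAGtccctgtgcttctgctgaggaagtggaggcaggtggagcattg
Sf3b2 (chr19:5295458-5295707, minus strand, the first of 2 listed starts): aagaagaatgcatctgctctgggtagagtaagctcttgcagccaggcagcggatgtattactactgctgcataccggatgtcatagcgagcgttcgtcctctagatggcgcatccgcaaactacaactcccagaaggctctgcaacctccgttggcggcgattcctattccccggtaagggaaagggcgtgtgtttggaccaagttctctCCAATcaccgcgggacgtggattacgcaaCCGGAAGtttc
In Srsf9 the GC boxes begin 129, 58 and 48 bases before the start, all on the other strand. The ETS site of Hnrnpf begins 50 bases before the start, and that of Sf3b2 begins 11 bases before it, with a CCAAT box 40 bases before it.

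Across the 33 members with a RefSeq promoter (Sf3b4, Sf3b5 and Hnrnpul2 had no entry), windows ran from 250 bases before to 50 after the start and were searched on both strands. The ETS site was found in 11 of the 33 (33.3%), against 19.5% of the promoters of 8382 genes in the table. By family it was present in 5 of 6 SF3, 4 of 10 SR and 2 of 17 hnRNP promoters. The CCAAT box was found in 18 (54.5%, against 38.8%), of which 12 of 17 were hnRNP, 4 of 10 SR and 2 of 6 SF3 promoters. The GC box was found in 24 (72.7%, against 64.3%). The other motifs searched were TATAAA (5 members, 15.2%, against 6.79%), TGACGT (8, 24.2%, against 12.7%), and TGACGTCA, which holds TGACGT (0 members, against 3.36%). AAGATGGC was in 2 members (6.06%, against 5.19%), CTCGCGAG in 3 (9.09%, against 2.08%) and TGCGCATG in 1 (3.03%, against 4.26%). The members' windows were 63.3% GC at the median and those of all the genes 60.7%, and these matches are descriptions of sequence only.

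Library depth differed with treatment: the PBS libraries held 7702189 to 21068166 reads and the NPC libraries 2653818 to 7003542, without overlap. PBS 1 and NPC A stood apart on 22 immediate-early and stress genes, with mean log2 values of 5.70 and 5.51 against 7.15 to 7.59 in the other 6. Of that list Junb, a subunit of AP-1, was at 6.51, 8.03, 7.88 and 7.92 in PBS and at 6.22, 7.67, 7.36 and 6.97 in NPC libraries. Its relative Jund was at 4.54, 4.76, 5.08 and 4.96 in PBS and at 3.63, 4.76, 4.37 and 4.19 in NPC libraries, lowest in NPC A. Of the markers of the sorted population, 6 of 7 were in the table (Ly6g was not), with a summed linear level of 9270 to 12268 in PBS and 9023 to 13121 in NPC libraries. Summed markers of T cells (8 of 8 listed) were at 64.3 to 74.6 in PBS and 79.3 to 109 in NPC libraries, without overlap. Sums of the other cell type marker lists overlapped. B cell markers (3 of 5 listed) summed to 3.84 to 6.81 (PBS) and 3.81 to 10.8 (NPC). Neutrophils (6 of 6) were at 65.2 to 106 and 40.0 to 129, and microglia (6 of 6) at 143 to 262 and 168 to 292. Neural precursors and glia (4 of 8, without Sox2, Olig2, Dcx and Sox10) were at 96.8 to 119 and 84.3 to 121. Endothelium (2 of 4, without Cldn5 and Cdh5) was at 131 to 148 and 122 to 167. PBS 1 and NPC A also had the lowest mean log2 values of microglia markers (3.43 and 3.80, against 4.18 to 4.92 in the other 6). The same held for neural precursor and glia markers (3.57 and 3.41, against 3.99 to 4.41) and B cell markers (0.22 and 0.30, against 0.43 to 1.77). The part of depth, of PBS 1 and NPC A, or of other cells in the results below was not tested beyond the values given beside them, and fewer cells of a type cannot be told apart from less RNA per cell in such bulk samples.

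Most SF3 genes stood lower per transcript length than the other members. On the log2 scale of normalised expression per kb of the principal transcript, Hnrnpa2b1 led in PBS libraries at 8.86 ± 0.06 (SD, n = 4). It encodes an abundant hnRNP that also takes part in RNA transport. Srsf5 followed at 8.03 ± 0.23 and Hnrnph1 at 7.16 ± 0.24, then Srsf3 at 6.64 ± 0.10. Hnrnpk (6.31 ± 0.21), Srsf2 (6.18 ± 0.15) and Sf3b1 (6.17 ± 0.14) came next and lay within 1 SD of one another. At the other end stood Sf3b4 at 1.32 ± 0.27, Srsf4 at 1.14 ± 0.24 and Sf3a2 at 1.04 ± 0.18, where neighbours in the order differed by less than 1 SD. The median level per kb was 5.42 in the SR family (10 genes), 5.47 in the hnRNP family (17 genes) and 3.15 in the SF3 family (8 genes). Hnrnpr was left out here because its principal transcript is annotated at 21452 bases. The order depends on the annotation, since values are per gene but were divided by the length of 1 transcript. For Sf3b5, at 2.16 in PBS, that length was 3841 bases, the whole span of its gene. For Sf3b2 it was 3222 bases, where all its annotated exons cover 6822, and for Hnrnpk 2676, where they cover 6466. Subunits of the SF3 complex ranged on this scale from 1.04 for Sf3a2 to 6.17 for Sf3b1.

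**Figure D1:**
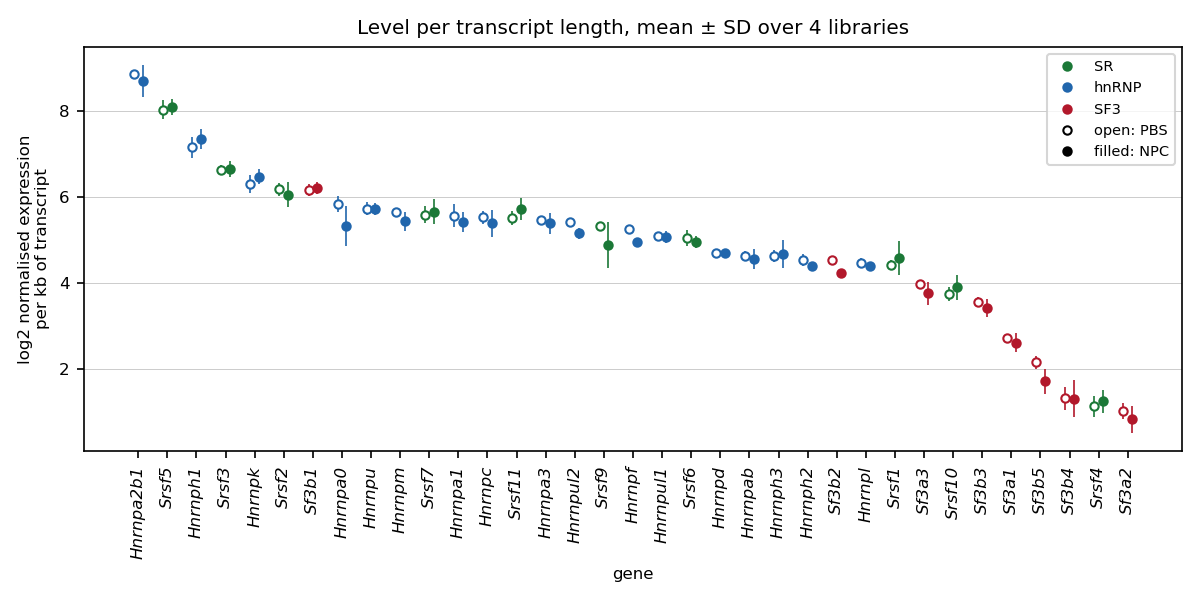
Log2 normalised expression per kb of transcript for 35 members (vertical axis), ordered along the horizontal axis by the PBS mean. Open points are PBS means, filled points NPC means, bars 1 SD over 4 libraries, and colour the family; 6 of the 8 genes at the right end are SF3 genes, while Sf3b1 stands near the left end.

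No member differed between NPC and PBS libraries past the threshold, and the same held for every gene of the table (limma, Benjamini-Hochberg adjusted p under 0.05 in 0% of 12256 genes; smallest adjusted p 0.382, and 0.390 among members). At an unadjusted p under 0.05 there were 5 members, all lower in NPC libraries, which is 13.9% of 36 against 5.32% of all genes lower. No member was higher at that level, against 6% of all genes, and the share in either direction over all genes was 11.3%. Groups did not overlap for 3 members, all lower (8.33%, against 3.25% of all genes), and for no member higher (against 3.53%). Without PBS 2 the count of 5 came to 1 (Sf3b2), without NPC D to 2 (Hnrnpf and Sf3b2), and without PBS 1 and NPC A together to 2 (Hnrnpa0 and Hnrnpf).

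The intervals were narrow beside those of all genes, which were not matched to the members for expression level. For all 36 members the 95% interval of the fold change lay within 2-fold in either direction, against 79.1% of all genes, and for 31 (86.1%) within 1.5-fold, against 44.5%. The larger SD was in the NPC group for 25 of 36 members (69.4%), close to the 68.7% of all genes. Over all members 12 were higher and 24 lower, and the median of their log2 fold changes was -0.09, where all genes had 6440 higher, 5816 lower and a median of 0.02.

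**Figure D2:**
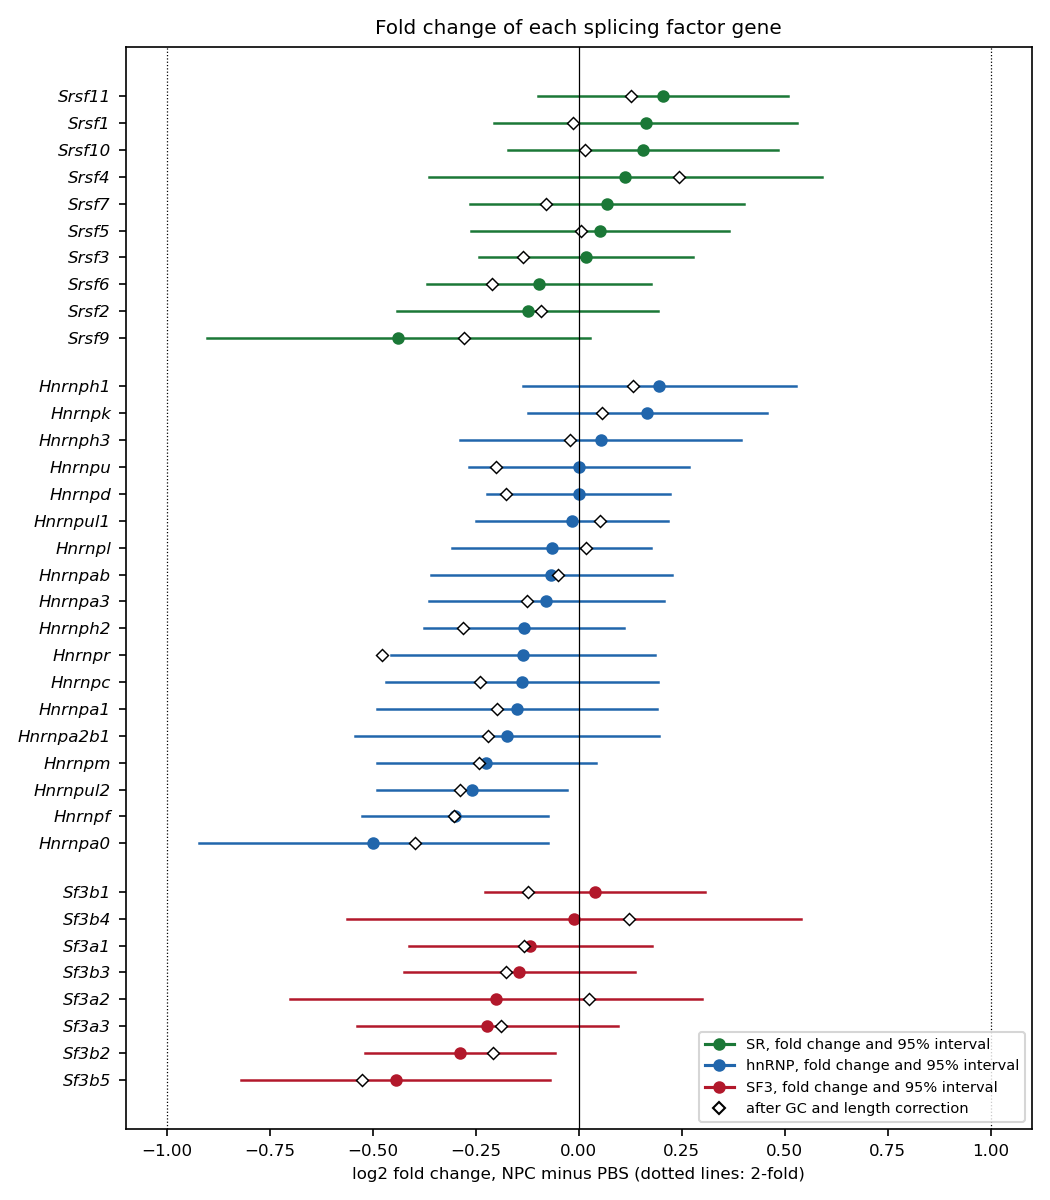
Log2 fold change, NPC minus PBS, of each member (horizontal axis; filled points) with its 95% interval from limma, by family. Open diamonds give the value after each library was corrected for GC content and transcript length; all 36 intervals lie inside the dotted 2-fold lines.

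In the SR family 7 genes were higher and 3 lower; the median of the log2 fold changes was 0.06 (range -0.44 to 0.20), and none had an unadjusted p under 0.05. Srsf1, the founding member of the family, was at 6.74, 6.86, 6.76 and 7.01 in PBS 1 to 4 and at 7.31, 7.36, 6.77 and 6.58 in NPC A to D (log2 normalised expression, as for all values by library that follow). NPC A and B lay above every PBS library and NPC D below every one, so the groups overlapped and the log2 fold change was 0.16 (SE 0.17, adjusted p = 0.754 by limma). Srsf10, an atypical member that represses splicing when it loses its phosphates, was at 5.45, 5.62, 5.71 and 5.83 in PBS and at 5.98, 6.07, 5.42 and 5.78 in NPC libraries. NPC A and B were again the highest and NPC C the lowest of the 8, with a log2 fold change of 0.16 (SE 0.15, adjusted p = 0.734 by limma).

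Srsf9, which has a short RS tail and acts on many of the same exons as Srsf1, had the lowest log2 fold change of the family. It was at 5.51, 5.68, 5.42 and 5.52 in PBS 1 to 4 and at 5.35, 5.72, 4.72 and 4.59 in NPC A to D. NPC C and D were the lowest and NPC A lay just below the PBS libraries, while NPC B was the highest of all 8, so the groups overlapped. The log2 fold change was -0.44 (SE 0.21, adjusted p = 0.466 by limma), and its NPC values spread widely (SD 0.53, against 0.11 in PBS). Its transcript is 56.2% GC, and the fold change after GC and length correction was -0.28.

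Srsf11, an SR-related protein also called p54, had the largest positive value in the family. It was at 7.36, 7.01, 7.03 and 7.23 in PBS libraries and at 7.65, 7.22, 7.10 and 7.46 in NPC libraries. NPC A and D lay above every PBS library, NPC B and C among them, for a log2 fold change of 0.20 (SE 0.14, adjusted p = 0.608 by limma). After GC and length correction the value was 0.13.

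The most highly expressed SR genes differed little. Srsf5, whose transcript responds to insulin in other cells, was at 8.48, 8.61, 8.62 and 9.01 in PBS and at 8.51, 8.67, 8.82 and 8.95 in NPC libraries (log2 fold change 0.05, 95% interval -0.26 to 0.36). Srsf3, the smallest SR protein and a factor in mRNA export, was at 7.92, 7.96, 8.13 and 8.09 in PBS and at 8.03, 8.28, 7.86 and 8.00 in NPC libraries (0.02, interval -0.24 to 0.28). The NPC values of Srsf5 lay inside the PBS range, and those of Srsf3 reached beyond it on both sides. Srsf3 has a pseudogene copy (Srsf3-ps, in the table as Gm12355), and how the authors' counting split reads between such copies is not stated. Srsf2, Srsf4, Srsf6 and Srsf7, the other 4 members, had log2 fold changes of -0.12 to 0.11.

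In the hnRNP family 4 genes were higher and 14 lower; their log2 fold changes had a median of -0.11 (range -0.50 to 0.20), and 3 had an unadjusted p under 0.05, all lower (16.7%, against 5.32% of all genes). Hnrnpf encodes a protein that binds runs of guanines near splice sites and polyadenylation sites. It was at 6.37, 6.62, 6.50 and 6.57 in PBS 1 to 4 and at 6.17, 6.25, 6.27 and 6.18 in NPC A to D. Every NPC library lay below every PBS library, and the NPC values were the tighter group. The log2 fold change was -0.30 (SE 0.10, adjusted p = 0.390 by limma), and it was -0.30 after GC and length correction and -0.33 without PBS 1 and NPC A. Its unadjusted p stayed under 0.05 in 18 of 19 alternative settings, all but the one without PBS 2. These settings reuse the same libraries, so such counts are not independent evidence. Its relatives Hnrnph1, Hnrnph2 and Hnrnph3, which share its RNA-binding domain, did not lie on one side, with log2 fold changes of 0.20, -0.13 and 0.05; they were picked for this comparison after their values were seen. Of the exon bases of Hnrnpf, 26.5% overlap 2 annotated genes on the opposite strand, whose reads cannot be told apart without the strand setting.

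Hnrnpul2, a relative of the scaffold protein Hnrnpu, was the other hnRNP gene whose groups did not overlap. It was at 7.80, 7.82, 7.72 and 7.74 in PBS libraries and at 7.50, 7.60, 7.60 and 7.33 in NPC libraries. All PBS libraries lay close together and above every NPC library, for a log2 fold change of -0.26 (SE 0.11, adjusted p = 0.413 by limma). The value was -0.29 after GC and length correction, and 5.07% of its exon bases overlap another annotated gene on the same strand. Without PBS 1 and NPC A it was -0.25, with an unadjusted p above 0.05. In 15 of 19 alternative settings the unadjusted p of Hnrnpul2 was under 0.05. Hnrnpu itself was at 8.43, 8.71, 8.75 and 8.75 in PBS and at 8.68, 8.84, 8.61 and 8.51 in NPC libraries, with overlap and a log2 fold change of 0.00084 (interval -0.27 to 0.27).

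Hnrnpa0, which binds AU-rich elements of inflammatory transcripts in macrophages, had the largest negative log2 fold change of all 36, -0.50 (SE 0.20, adjusted p = 0.396 by limma). It was at 7.15, 7.44, 7.06 and 7.37 in PBS and at 6.87, 7.35, 6.32 and 6.48 in NPC libraries. NPC A, C and D lay below every PBS library, and NPC B lay within the PBS range. After GC and length correction the value was -0.40, with an unadjusted p above 0.05. In 13 of 19 alternative settings the unadjusted p of Hnrnpa0 was under 0.05. Hnrnpm, which acts on exons of signalling and adhesion genes, was at 7.67, 7.61, 7.72 and 7.53 in PBS and at 7.53, 7.64, 7.31 and 7.17 in NPC libraries, and there too NPC C and D were the lowest (-0.22, SE 0.12). Its exons overlap those of March2, on the same strand, over 14.7% of their length.

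Hnrnpa2b1 was the most highly expressed member, at 9.55, 9.62, 9.54 and 9.67 in PBS and at 9.69, 9.79, 9.15 and 9.05 in NPC libraries. The NPC libraries fell on both sides of the narrow PBS range, A and B above it and C and D below, for a log2 fold change of -0.17 (SE 0.17, adjusted p = 0.735 by limma), or -0.28 without PBS 1 and NPC A. The other 12 hnRNP members had log2 fold changes of -0.15 to 0.20, 3 higher and 9 lower, and none had an unadjusted p under 0.05.

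In the SF3 family 1 gene was higher and 7 were lower; the log2 fold changes had their median at -0.17 (range -0.44 to 0.04), and 2 had an unadjusted p under 0.05, both lower (25.0%, against 5.32% of all genes). The 3 SF3a genes were all lower (median -0.20), and of the 5 SF3b genes 4 were lower (median -0.14). Sf3b2 encodes the subunit SAP145, which contacts RNA beside the branch point. It was at 6.32, 6.24, 6.24 and 6.10 in PBS 1 to 4 and at 5.83, 6.01, 6.00 and 5.90 in NPC A to D. Every NPC library lay below every PBS library, for a log2 fold change of -0.29 (SE 0.11, adjusted p = 0.391 by limma). It was -0.21 after GC and length correction and -0.22 without PBS 1 and NPC A, where its unadjusted p no longer lay under 0.05, as it did in the other 18 of 19 alternative settings.

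Sf3b5, the smallest SF3b subunit, was at 4.23, 4.23, 4.03 and 3.92 in PBS and at 3.32, 3.80, 4.00 and 3.52 in NPC libraries. NPC C lay within the PBS range and the other NPC libraries below it, for a log2 fold change of -0.44 (SE 0.17, adjusted p = 0.396 by limma). It rested on 35 to 366 reads per library, and the value was -0.53 after GC and length correction but -0.29 without PBS 1 and NPC A. In 13 of 19 alternative settings the unadjusted p of Sf3b5 was under 0.05. Sf3a3, a subunit that helps to join SF3a to the U2 snRNP, was at 4.84, 4.96, 4.80 and 4.79 in PBS and at 4.54, 4.72, 4.94 and 4.32 in NPC libraries (-0.22, SE 0.15). There NPC C again lay within the PBS range and the other NPC libraries below it.

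Sf3b1, the scaffold that holds the branch point adenosine and is often mutated in myelodysplastic disease, was at 8.60, 8.81, 8.90 and 8.90 in PBS and at 8.77, 9.03, 8.71 and 8.86 in NPC libraries. The groups overlapped, and the log2 fold change was 0.04 (interval -0.23 to 0.31; -0.12 after GC and length correction). Sf3b3, its partner in the SF3b core, was at 5.80, 5.69, 5.88 and 5.61 in PBS and at 5.71, 5.83, 5.44 and 5.40 in NPC libraries (-0.14, SE 0.13; -0.18 after the correction). NPC C and D were below every PBS library. Sf3a1, Sf3a2 and Sf3b4 had log2 fold changes of -0.20 to -0.01.

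**Figure D3:**
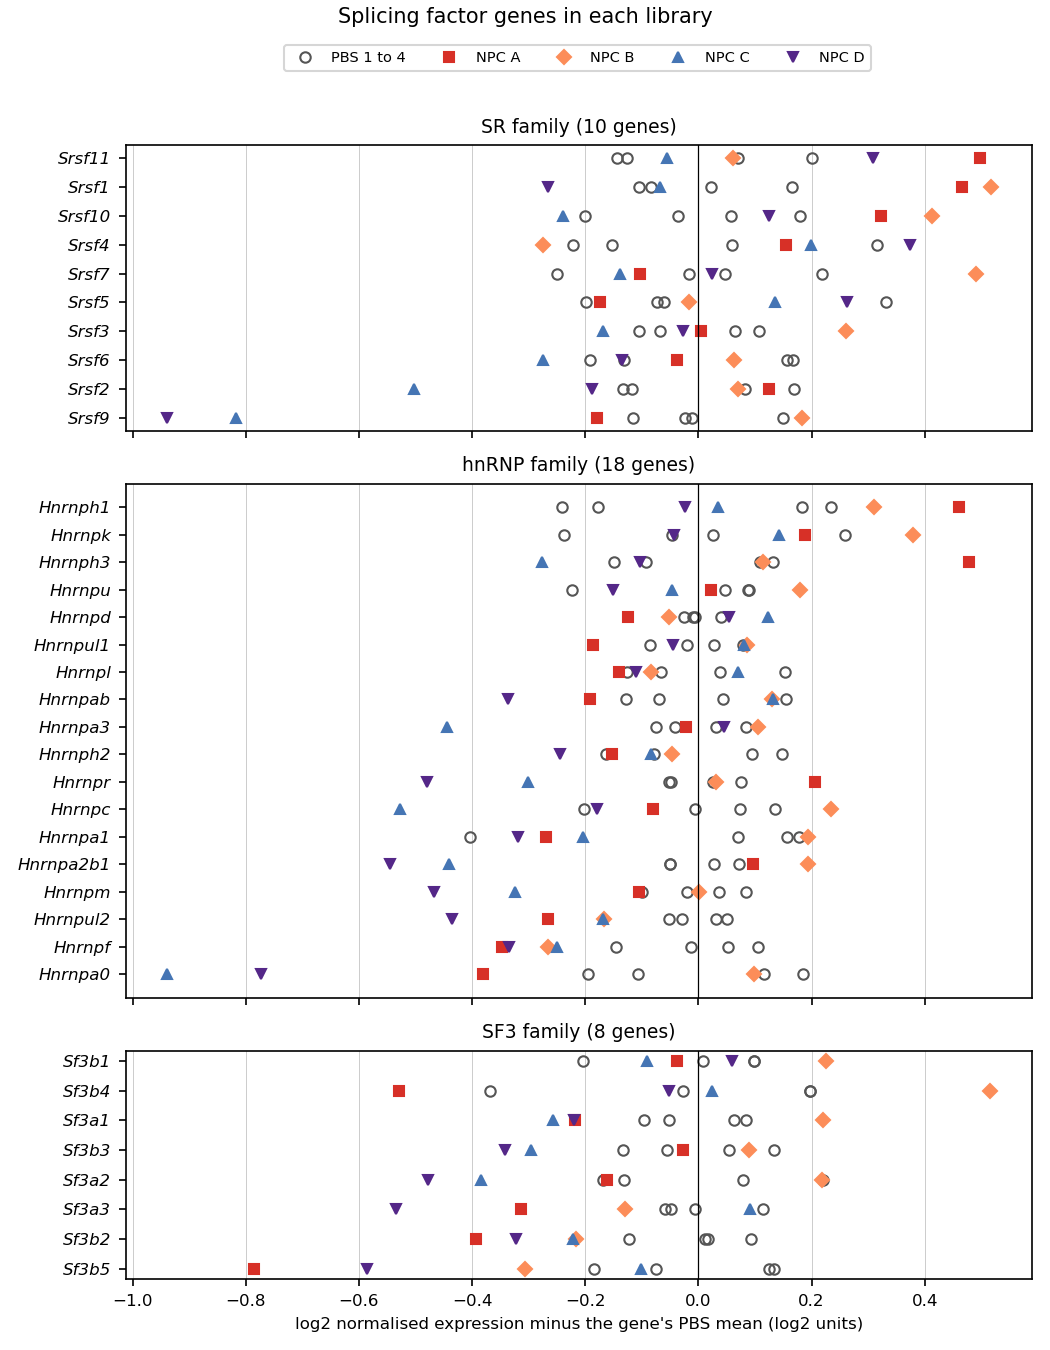
Log2 normalised expression of each member in each library, as the difference from the gene's PBS mean (horizontal axis), by family. Open circles are PBS 1 to 4 and coloured symbols NPC A to D; for Hnrnpf, Hnrnpul2 and Sf3b2 every coloured symbol lies left of every circle, and NPC B is often the rightmost symbol.

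The NPC libraries were not alike in these genes. NPC B had the highest value of the 8 libraries for 15 of 36 members (41.7%, against 16.3% of all genes). NPC D had the lowest for 11 (30.6%, against 16.4%) and NPC C the lowest for 9 (25.0%, against 12.6%). The mean difference of the SR family from its PBS mean was 0.11, 0.18, -0.19 and -0.05 log2 units in NPC A to D, and -0.06 to 0.10 in PBS libraries. For the hnRNP family it was -0.05, 0.08, -0.19 and -0.25, and -0.09 to 0.05 in PBS. For the SF3 family it was -0.31, 0.08, -0.15 and -0.31, and -0.09 to 0.09 in PBS. The same mean over all genes was 0.02 to 0.05 in the NPC libraries. NPC B stood within or above the PBS range in all 3 families, and NPC C below it. These means weigh every gene of a family alike. In NPC A, Sf3b5 was at 3.32 against a PBS mean of 4.10 (40 reads) and Sf3b4 at 1.73 against 2.26 (13 reads). Sf3b1 was at 8.77 there against 8.80, and Sf3b3 at 5.71 against 5.74.

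The contrast between families was read within each library, which removes what shifts all of them together. This reading does not remove a library's trend with GC content, because the families differ in GC content. That trend is Spearman's rho between GC content and each gene's difference from its mean over the 8 libraries. It was 0.43, 0.15, 0.17 and -0.10 in PBS 1 to 4 and -0.23, -0.16, 0.03 and -0.18 in NPC A to D. Its part in the differences below was not tested by library. The SR mean minus the SF3 mean was 0.42, 0.10, -0.04 and 0.26 in NPC A to D, and -0.12, -0.14, 0.07 and 0.19 in PBS 1 to 4. In the 0.42 of NPC A, the low-read genes Sf3b5 and Sf3b4 weigh as much as the other SF3 genes. The SR mean minus the hnRNP mean was 0.15, 0.10, -0.003 and 0.20 in NPC A to D and -0.07 to 0.06 in PBS. The hnRNP mean minus the SF3 mean was 0.26, 0.003, -0.04 and 0.06 in NPC A to D and -0.14 to 0.13 in PBS. Each of these differences overlapped between the groups, and NPC C lay at or near 0 in all of them.

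**Figure D4:**
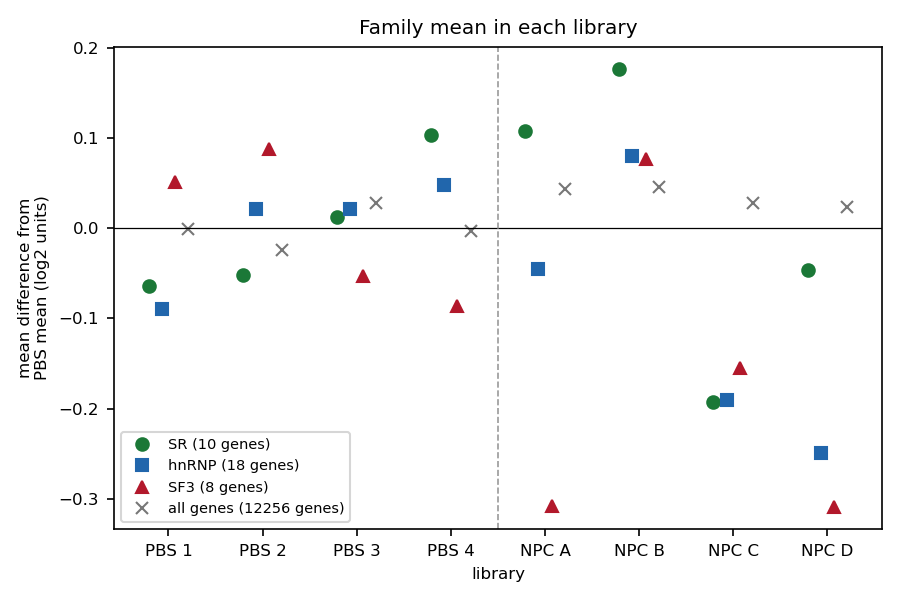
Mean difference from the PBS mean (vertical axis, log2 units) over the genes of each family and over all genes, in each library (horizontal axis). NPC A and NPC D are at -0.31 for the SF3 family, NPC B is at 0.08 to 0.18 for all 3 families, and the mean over all genes stays within 0.02 to 0.05 in NPC libraries. Each gene weighs the same, including those with few reads.

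The families differed in transcript composition, and fold changes in the whole table moved with it. Across 11368 genes Spearman's rho between fold change and GC content was -0.367, a description across genes that are not independent. Between fold change and transcript length it was 0.198. The trend with GC content by library, given above, also differed within PBS and was highest in PBS 1. Median transcript length was 2453 bases in the SR, 2677 in the hnRNP and 3531.5 in the SF3 family. Median GC was 43.7% in the SR family, 45.1% in the hnRNP family and 49.9% in the SF3 family, against 49.6% over all genes. The 12 members higher in NPC libraries had a median of 42.3% GC and the 24 lower one of 49.4%. Once GC content and length were corrected for in every library, the SR median turned from 0.06 to -0.05 (4 higher, 6 lower). The hnRNP median was then -0.20 (4 higher, 14 lower) and the SF3 median -0.15 (2 higher, 6 lower). Srsf10 and Srsf1 came to 0.02 and -0.01, and both to 0.03 without PBS 1 and NPC A. After correction 6 members had an unadjusted p under 0.05, all lower (16.7%, against 4.86% of all genes lower), and they included Hnrnph2 and Hnrnpr, named here after their values were seen, but not Hnrnpa0. Hnrnpr went from -0.14 to -0.48 with the 21452-base transcript as its length; the part of that length was not tested, and without Hnrnpr the count is 5. The SR median also changed sign without PBS 1 or without NPC B (-0.01 each), whereas the hnRNP and SF3 medians stayed below 0 in all 19 alternatives.

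The partners of these families were read from 7 lists with 98 of 99 genes measured. Of these, 59 were higher and 39 lower, where 52.5% of all genes were higher. At an unadjusted p under 0.05, 7 were higher (7.14%, against 6% of all genes) and 8 lower (8.16%, against 5.32%), and 0 passed after adjustment (limma). The counts of higher and lower genes in the lists were not repeated after GC and length correction. Kinases that phosphorylate SR proteins and the SR importer were higher in 9 of 9 genes (median log2 fold change 0.14), none with an unadjusted p under 0.05. Clk4, a nuclear kinase of SR proteins, was at 7.02, 6.68, 7.06 and 7.20 in PBS and at 7.39, 7.09, 7.10 and 7.46 in NPC libraries (0.27, SE 0.14). After GC and length correction its value was 0.19. NPC A and D lay above every PBS library. Its relative Clk1 was at 7.58, 8.08, 8.46 and 8.54 in PBS and at 8.56, 8.68, 8.15 and 8.43 in NPC libraries. PBS 1 was the lowest of the 8, and the log2 fold change of 0.29 (SE 0.20) came to 0.18 after GC and length correction and to 0.06 without PBS 1 and NPC A.

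Other proteins with RS domains were higher in 14 of 16 genes (median 0.14), 2 of them at an unadjusted p under 0.05 (12.5%, against 6% of all genes higher). Pnn, a protein of nuclear speckles and of the exon junction periphery, was at 6.96, 6.76, 6.76 and 6.83 in PBS and at 7.28, 6.94, 7.11 and 7.08 in NPC libraries (0.28, SE 0.11; 0.17 after GC and length correction). NPC B just failed to exceed the highest PBS library. Rsrc1, which takes part in the recognition of the downstream splice site, was at 4.62, 4.64, 4.95 and 4.59 in PBS and at 5.47, 4.96, 4.94 and 4.92 in NPC libraries. NPC A was the highest library, and the log2 fold change of 0.37 (SE 0.15) was 0.21 without PBS 1 and NPC A. The value of Rsrc1 was 0.28 after GC and length correction.

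Among 15 partners of SF3 in the U2 snRNP and its recruitment, 4 were higher and 11 lower (median -0.15), with 2 lower at an unadjusted p under 0.05 (13.3%, against 5.32% of all genes). Puf60, which binds the pyrimidine tract together with U2AF, was at 6.01, 5.88, 5.75 and 5.59 in PBS and at 5.43, 5.43, 5.29 and 4.96 in NPC libraries. Every NPC library lay below every PBS library (-0.53, SE 0.14, adjusted p = 0.382 by limma; -0.39 after GC and length correction). Phf5a, itself a subunit of SF3b under another symbol, was at 4.68, 4.54, 4.50 and 4.61 in PBS and at 4.54, 4.36, 3.87 and 3.64 in NPC libraries. NPC C and D were the lowest libraries (-0.48, SE 0.19, adjusted p = 0.396 by limma). The value of Phf5a was -0.51 after GC and length correction. Sm and other spliceosomal snRNP proteins (17 of 18 measured, without Snrpf) were higher in 5 and lower in 12 genes (median -0.15), with 1 lower at an unadjusted p under 0.05 (5.88%, against 5.32%). That was Prpf31, a protein of the U4/U6 snRNP, at 5.001, 4.76, 4.73 and 4.94 in PBS and at 4.67, 4.22, 4.78 and 4.46 in NPC libraries (-0.33, SE 0.15). The value of Prpf31 was -0.30 after GC and length correction. Snrpa, a protein of the U1 snRNP, was at 4.08, 3.82, 3.96 and 3.72 in PBS and at 3.66, 3.37, 3.66 and 3.66 in NPC libraries. Its groups did not overlap (-0.31, SE 0.15; -0.13 after GC and length correction), while those of Prpf31 did.

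Of 7 hnRNP proteins under other symbols, 5 were higher and 2 lower (median 0.09), with 1 higher (14.3%, against 6% of all genes) and 2 lower (28.6%, against 5.32%) at an unadjusted p under 0.05. Pcbp1, a binder of poly(C) tracts, was at 6.22, 6.28, 6.04 and 6.19 in PBS and at 5.59, 5.93, 5.97 and 5.93 in NPC libraries, without overlap (-0.33, SE 0.12; -0.17 after GC and length correction). Cirbp, the cold-inducible RNA-binding protein, was at 3.46, 3.54, 3.505 and 3.17 in PBS and at 3.28, 3.003, 2.99 and 2.39 in NPC libraries (-0.51, SE 0.20). NPC A alone reached the PBS range. The value of Cirbp was -0.39 after GC and length correction. Other splicing regulators were higher in 14 and lower in 6 of 20 genes (median 0.12), with 3 higher at an unadjusted p under 0.05 (15%, against 6% of all genes). Celf2, which regulates exons in lymphocytes and other cells, was at 7.89, 8.05, 8.01 and 8.10 in PBS and at 8.33, 8.25, 8.31 and 8.39 in NPC libraries. Every NPC library lay above every PBS library (0.31, SE 0.10, adjusted p = 0.390 by limma; 0.26 after GC and length correction). Rbm25, which binds exonic enhancers, was at 8.32, 8.00, 8.15 and 8.10 in PBS and at 8.65, 8.28, 8.36 and 8.55 in NPC libraries (0.32, SE 0.12; 0.18 after GC and length correction), with NPC B inside the PBS range.

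Factors of nonsense-mediated decay and of the exon junction complex, which act on transcripts with poison exons, were higher in 8 and lower in 6 of 14 genes (median 0.01), with 1 higher (7.14%, against 6% of all genes) and 3 lower (21.4%, against 5.32%) at an unadjusted p under 0.05. Rbm8a, the exon junction subunit Y14, was at 4.99, 5.09, 5.05 and 5.002 in PBS and at 4.71, 4.86, 4.57 and 4.45 in NPC libraries (-0.38, SE 0.13, adjusted p = 0.390 by limma). The value of Rbm8a was -0.46 after GC and length correction. Smg9, a regulator of the decay kinase Smg1, was at 4.19, 3.67, 3.58 and 3.74 in PBS and at 3.51, 3.32, 2.99 and 3.29 in NPC libraries (-0.52, SE 0.18; -0.33 after GC and length correction). For both genes every NPC library lay below every PBS library. Values are summed per gene, so inclusion of poison exons was not analysed here.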

How the data were processed

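Sequencing libraries from sorted dendritic cells (4 PBS, 4 NPC) were compared by treatment, with groups taken from the sample titles. Per the labels, cDNA was amplified (Ovation V2, then 12 cycles of PCR) and read from one end over 150 bases. Trimmomatic, STAR 2.3.0, HTSeq 0.5.3, limma and the build mm10 are named in the submitters' processing notes; those notes, as used here, give no annotation, strand setting or low-expression filter. The authors deposited log2 normalised expression of 12256 genes, not divided by length. The linear values are whole reads plus 0.5 times 1 step per library (100% whole within 0.01), and the recovered reads gave depth. The same offset weighs more in a shallow library: 6.81 to 22.4% of genes had under 10 reads in NPC and 0.579 to 4.49% in PBS libraries.

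Tests used limma 3.58.1 under R 4.3.3 on every gene (treatment as the only term, two-sided, with a variance trend; Benjamini-Hochberg adjustment across the whole table, threshold 0.05), after the pipeline was tested on simulated data. Members and lists were chosen with earlier results of these data known. Values by library are given for the 4 members of each family with the smallest unadjusted p, for the 2 with the highest level, and for 2 genes per list by smallest p. Transcript length, GC and coordinates are from GENCODE vM21 by symbol (11368 of 12256 matched 1 gene, all 36 members among them), using the principal transcript. The 19 alternatives were a robust prior, no variance trend, voom weights, library weights, quantile normalization, equal medians, a mean log2 value of at least 1, 1 added on the linear scale, thinned reads, GC and length correction, leaving out PBS 1 with NPC A, and leaving out each library.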

Additional observations from a re-analysis of the deposited data

Results flagged for a closer look

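Over 72 groups of 4 libraries (36 members in each treatment), 2 held a library far from the others by Dixon's criterion, where chance flags about 1 in 20 groups. Hnrnpu was at 8.434 in PBS 1, against 8.71 to 8.75 in the other PBS libraries. Sf3a1 was at 5.253 in NPC B, against 4.78 to 4.81 in the other NPC libraries.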

How the results depend on the processing

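Under the main settings and all 19 alternatives 0 genes passed the adjusted threshold (smallest adjusted p over the alternatives 0.134, among members 0.140, by limma). Genes at an unadjusted p under 0.05 numbered 1387, against 2139 with library weights and 792 to 1846 with 1 library left out. Members at that level numbered 5, against 3 without a variance trend, 2 without PBS 1 and NPC A together, and 1 to 7 with 1 library left out. Of the 17 members with values by library, 12 kept their sign throughout, and 9 of the other 19 did. Among the 10 others that did not, Sf3b4 ran from -0.42 to 0.23 and kept its sign in 13 of the 19 alternatives. Hnrnpd kept its sign in 12, and Hnrnph3, Hnrnpul1 and Srsf7 in 15 each. Sf3a2 ran from -0.34 to 0.024 and Srsf2 from -0.21 to 0.0020, each with its sign kept in 18. After GC and length correction Srsf1 was at -0.014, Srsf3 at -0.14, Hnrnpu at -0.20 and Sf3b1 at -0.12. With library weights Srsf3 was at -0.033, Hnrnpu at -0.072 and Sf3b1 at -0.019, and with thinned reads Hnrnpu was at -0.012. Thinning every library to the depth of the shallowest also put Srsf10 at 0.034, against 0.16 under the main settings. The family medians were then 0.03 (SR), -0.10 (hnRNP) and -0.22 (SF3), against 0.06, -0.11 and -0.17. Members at an unadjusted p under 0.05 then numbered 4, without Sf3b5. Without PBS 1 and NPC A together Srsf3 was at -0.013, Hnrnpu at -0.081 and Sf3b1 at -0.0031. With 1 library left out Srsf5 ran from -0.019 to 0.16, Srsf3 from -0.064 to 0.079, Hnrnpu from -0.074 to 0.051 and Sf3b1 from -0.029 to 0.083. The cause was not tested. No paired analysis was possible because the groups share no replicate numbers. Depth limits the lowest members most: Srsf4 had 10 to 87 reads per library, Sf3a2 12 to 103 and Sf3b4 13 to 107.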

Other observations

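Members of the same families also stood in the table under older symbols, outside the rule. Hnrpdl (Hnrnpdl) had a log2 fold change of -0.12, Hnrpll (Hnrnpll) of 0.16, and 0610009D07Rik, which RefSeq lists as a synonym of Sf3b6, of -0.07; none had an unadjusted p under 0.05. Reads in shared exons cannot be told apart where the genes lie on the same strand, nor on opposite strands while the strand setting is not given. In GENCODE vM21, 43.0% of the exon bases of Srsf4 overlap Gm12992, 29.1% of Hnrnpab overlap Phykpl, 16.1% of Sf3a2 overlap Plekhj1, 25.3% of Srsf2 overlap Mettl23 or Mfsd11, and 14.7% of Hnrnpm overlap March2, which lies on the same strand. For the members with non-overlapping groups the overlap was 26.5% for Hnrnpf (4933440N22Rik and Gm43863), 5.07% for Hnrnpul2 (AC129217.1, on the same strand) and 2.84% for Sf3b2 (AC125059.3). RefSeq also lists a pseudogene of the Hnrnpa1 type (Hnrnpa1l2-ps), so the value of Hnrnpa1 is uncertain if reads were split between copies.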
